A study of Mus musculus with 8 samples.

Results

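The neuromuscular junction genes examined here were Chrna1, Chrnb1, Chrnd, Chrne, Chrng, Musk, Dok7, Rapsn, Lrp4 and Colq. All regions that the deposited table annotates to these 10 genes were taken as members, which gave 194 of its 489637 regions. The assay was ATAC-seq on nuclei of the gastrocnemius, a muscle of the calf: a transposase cuts accessible DNA and leaves sequencing adapters there. The series held 8 mouse libraries, 4 labelled Vehicle and 4 labelled iMSBmal1KO, each made from a pair of gastrocnemius muscles. Muscle was taken from all mice at an age of 6 months. Every mouse carried the genotype Cre+:iMSBmal1 fl/fl. The Vehicle mice received vehicle, and the iMSBmal1KO mice received tamoxifen, which activates an inducible Cre and so removes the floxed part of Bmal1, which codes for a core circadian clock factor. The labels do not name the promoter that drives Cre or the hour at which muscle was taken. Tamoxifen itself and the loss of Bmal1 cannot be told apart in this design.

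At the neuromuscular junction, a motor nerve ending releases acetylcholine onto receptors packed into a small patch of the muscle fibre membrane. The muscle receptor is a ring of subunits encoded by Chrna1, Chrnb1, Chrnd and either Chrng in fetal muscle or Chrne in adult muscle. Nerve-derived agrin binds LRP4, which activates the kinase MuSK together with its cytoplasmic adaptor DOK7, and rapsyn, the product of Rapsn, then anchors the receptors in clusters. Colq encodes the collagen tail that holds acetylcholinesterase in the synaptic cleft. In adult fibres the receptor subunit genes are transcribed mainly by the few nuclei under the nerve ending. After denervation, several receptor subunit genes are known to be reactivated along the whole fibre. ATAC-seq of whole muscle averages over all these nuclei, so a change in the share of nuclei of a kind and a change in accessibility per nucleus cannot be told apart.

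Promoter sequences from RefSeq (build GRCm38.p6) were available for 6 of the 10 genes, and those of Chrna1, Chrne and Chrng are shown because the results below turn on these genes. Each sequence gives the 250 bases before the RefSeq start, 5′ to 3′ on the strand of the gene. Capitals mark E-boxes (CANNTG), the motif of myogenic and clock helix-loop-helix factors, and N-boxes (CCGGAA on either strand), the ETS-factor motif known from synaptic genes.
Chrna1, chr2:73580339-73580588, minus strand: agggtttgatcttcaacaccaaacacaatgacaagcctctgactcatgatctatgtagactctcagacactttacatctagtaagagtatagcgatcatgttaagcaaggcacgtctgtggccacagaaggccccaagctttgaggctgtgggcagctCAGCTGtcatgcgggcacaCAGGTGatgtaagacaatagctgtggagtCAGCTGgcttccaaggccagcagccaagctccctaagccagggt
Chrne, chr11:70619195-70619444, minus strand: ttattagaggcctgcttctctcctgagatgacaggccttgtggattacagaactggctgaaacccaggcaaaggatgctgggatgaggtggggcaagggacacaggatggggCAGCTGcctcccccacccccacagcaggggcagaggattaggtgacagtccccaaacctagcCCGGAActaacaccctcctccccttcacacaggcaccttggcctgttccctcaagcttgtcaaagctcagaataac
Chrng, chr1:87205561-87205810, plus strand: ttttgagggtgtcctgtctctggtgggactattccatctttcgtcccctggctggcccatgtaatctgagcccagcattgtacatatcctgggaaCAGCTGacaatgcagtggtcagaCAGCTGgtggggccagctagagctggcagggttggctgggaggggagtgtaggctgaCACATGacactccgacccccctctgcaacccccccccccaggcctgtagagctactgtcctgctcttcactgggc

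The Chrne window held the only N-box found in these 7 windows of 6 genes (Dok7 has 2 windows), 71 to 76 bases before the start, and an E-box 133 to 138 bases before it. Both lay inside the most accessible Chrne region of the table (chromosome 11, 70619228 to 70619355). The Chrna1 and Chrng windows each held 3 E-boxes and no N-box. Of the Chrna1 E-boxes, the one nearest to the start, 39 to 44 bases before it, lay wholly within a deposited region (chromosome 2, 73580338 to 73580408). No deposited region overlapped the Chrng window. The same search found an N-box in 12.0% and an E-box in 66.2% of the 32851 RefSeq promoter windows of that length. CACGTG, the E-box form bound best by CLOCK and BMAL1, occurred in none of the windows of these genes and in 6.02% of all windows. These matches describe letters in a window and are not evidence of binding.

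Sequencing depth ran from 4.31 to 29.5 M (1e+06) read equivalents per library, read equivalents being the deposited signal divided by its smallest step. The shallowest library was Vehicle replicate 4, which also had the highest mitochondrial share (16.5%, against 1.11% to 5.51% in the others). The tissue label was checked against markers of muscle fibres, and the strongest promoter regions of Ckm and Acta1 ranked at the 99.8th and 98.3rd percentile of all genes. The macrophage gene Ptprc ranked at percentile 0.572. For none of the 6 marker lists (muscle fibre, Schwann cell, satellite cell, fibro-adipogenic, endothelial and macrophage, 23 genes) did the summed signal separate the groups, and no marker gene passed the threshold. The sums of the Schwann cell genes ran from 1029 to 1371 in Vehicle and from 1315 to 1456 in iMSBmal1KO. The targeted gene, listed as Arntl, summed to 2688, 2248, 2557 and 1942 in Vehicle and to 3023, 3421, 3154 and 3315 in iMSBmal1KO, so it was no lower in the libraries labelled iMSBmal1KO (log2 change 0.46 ± 0.14, SE, adjusted p in limma 0.374). Of its 37 tested regions, 1 was called, higher in iMSBmal1KO (chromosome 7, 113250869 to 113251388, log2 change 1.08 ± 0.21, SE, adjusted p in limma 0.0468). The labels do not say which part of Bmal1 is floxed, so these values do not check the deletion.

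In Vehicle muscle the 10 genes differed widely in the accessibility of their strongest promoter region, meaning a region labelled as transcription start or within 1000 bp of a start. Per kb of region, the mean Vehicle signal was 1268 ± 123 at Chrnb1, 1113 ± 167 at Dok7, 715 ± 110 at Rapsn, 646 ± 232 at Chrne and 558 ± 44.4 at Lrp4 (SD, n = 4). These 5 genes lay above the median of 217 over the 22214 genes with such a region, at percentiles from 72.7 for Lrp4 to 94.2 for Chrnb1. The other 5 lay below it. Their values per kb were 174 ± 72.0 at Musk, 155 ± 78.0 at Chrna1, 104 ± 64.1 at Colq, 100.3 ± 37.5 at Chrnd and 34.2 ± 5.80 at Chrng (SD, n = 4). The order had steps that no Vehicle library crossed between Dok7 and Rapsn, between Lrp4 and Musk, and between Chrnd and Chrng. Within each of the runs Chrnb1 and Dok7, then Rapsn, Chrne and Lrp4, then Musk, Chrna1, Colq and Chrnd, the ranges of neighbours overlapped.

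**Figure D1:**
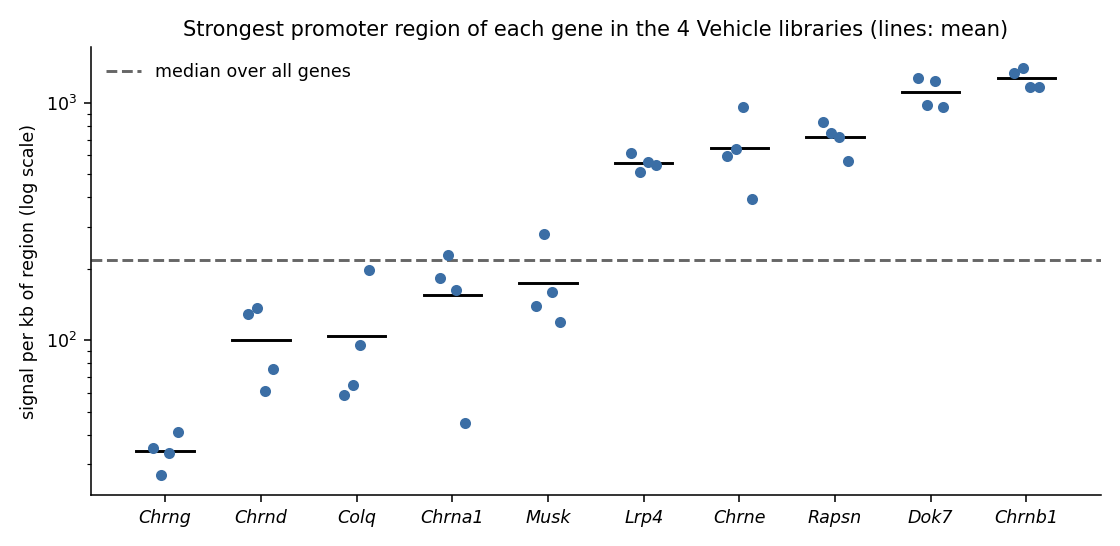
Signal per kb of the strongest promoter region of each gene (y axis, log scale) in the 4 Vehicle libraries (points), with the mean as a line and the median over all genes (217) dashed. Chrnb1 and Dok7 are highest, and Chrng, at 27.0 to 41.1 per kb, lies below every other gene shown.

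The receptor subunit genes thus spanned the whole range. The strongest Chrnb1 region covers the start (chromosome 11, 69795320 to 69795931, 611 bp) and held 91.1% of the Vehicle signal of that gene. Its signal was 817, 859, 710 and 713 in Vehicle replicates 1 to 4. All 3 Chrne regions lie immediately upstream of its start, and 79.1% of their Vehicle signal was in the region that holds the N-box and E-box. Chrng had a single region (chromosome 1, 87204661 to 87204813), at the start of a transcript that begins upstream of the RefSeq promoter window. It held 2 to 19 reads per library and did not pass the filter on low signal.

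The adult and fetal subunit genes differed strongly in Vehicle muscle. Per kb of region, the summed signal was 438 ± 152 at Chrne and 34.2 ± 5.80 at Chrng (SD, n = 4), and the Chrne value exceeded the Chrng value in every library. The log2 ratio of the Chrne sum to the Chrng signal, each plus 1, was 3.98, 4.27, 4.66 and 3.20 in Vehicle replicates 1 to 4. In iMSBmal1KO replicates 1 to 4 it was 2.73, 2.77, 3.47 and 2.43. The ranges overlapped through Vehicle replicate 4 and iMSBmal1KO replicate 3. The mean ratio was 4.03 ± 0.62 in Vehicle and 2.85 ± 0.44 in iMSBmal1KO (± SD over 4 libraries per group), a difference of -1.18. An exact two-sided permutation test over the 70 arrangements of the libraries gave p = 0.0571, where 0.0286 is the smallest possible, so the difference did not pass the threshold of 0.05. It rests on the few reads at Chrng, whose signal was 5.33, 4.11, 5.08 and 6.25 in Vehicle and 8.13, 13.4, 5.96 and 17.6 in iMSBmal1KO. These ranges overlapped as well.

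**Figure D2:**
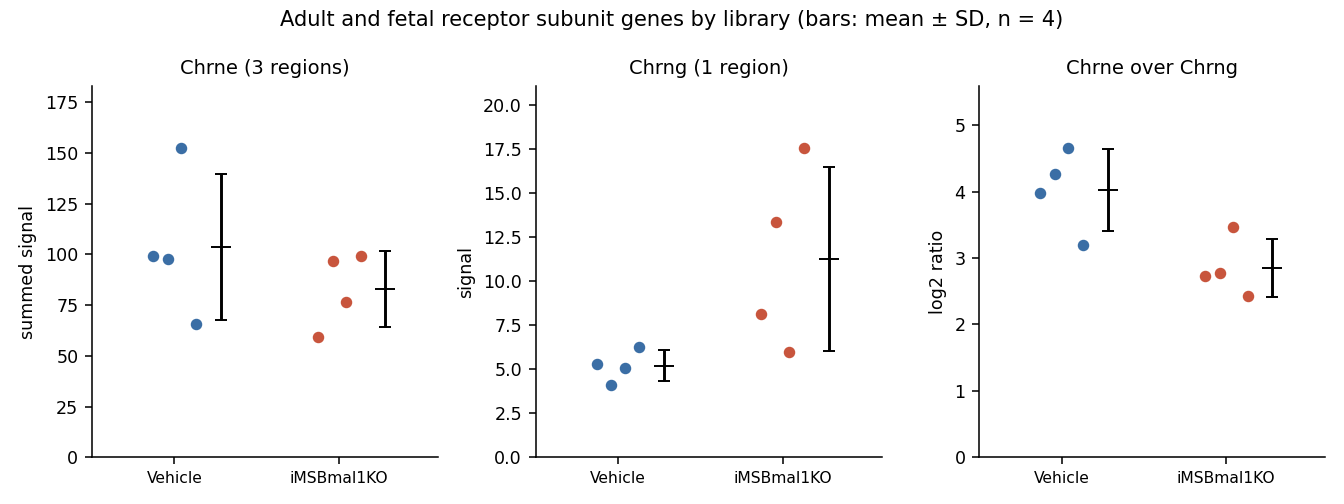
Summed signal of Chrne (left), signal of the Chrng region (middle) and their log2 ratio (right) in each library, with mean ± SD of 4 libraries per group. The ratio is lower on average in iMSBmal1KO (2.85 against 4.03), and the 2 groups overlap.

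The next question was which of these genes differed between iMSBmal1KO and Vehicle. For each gene the signal of all its regions was summed per library, and the sums of all 22224 genes past a filter on low signal were fitted together with limma on log2(sum + 1). Of the 9 members that passed, Chrna1 alone passed the threshold of 0.05 on the adjusted p (Benjamini-Hochberg over all genes). Over all genes 0.13% were called. At an unadjusted p under 0.05 were 3 members with higher sums, Chrna1, Lrp4 and Colq (7.61% of all genes), and 1 with a lower sum, Chrnd (1.86% of all genes). In the same 4 genes the values of the groups did not overlap. Over all genes, groups that did not overlap made up 3.69% with the higher sums in iMSBmal1KO and 1.24% with the lower. The median log2 change was 0.13 over the 9 members and 0.11 over all genes.

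**Figure D3:**
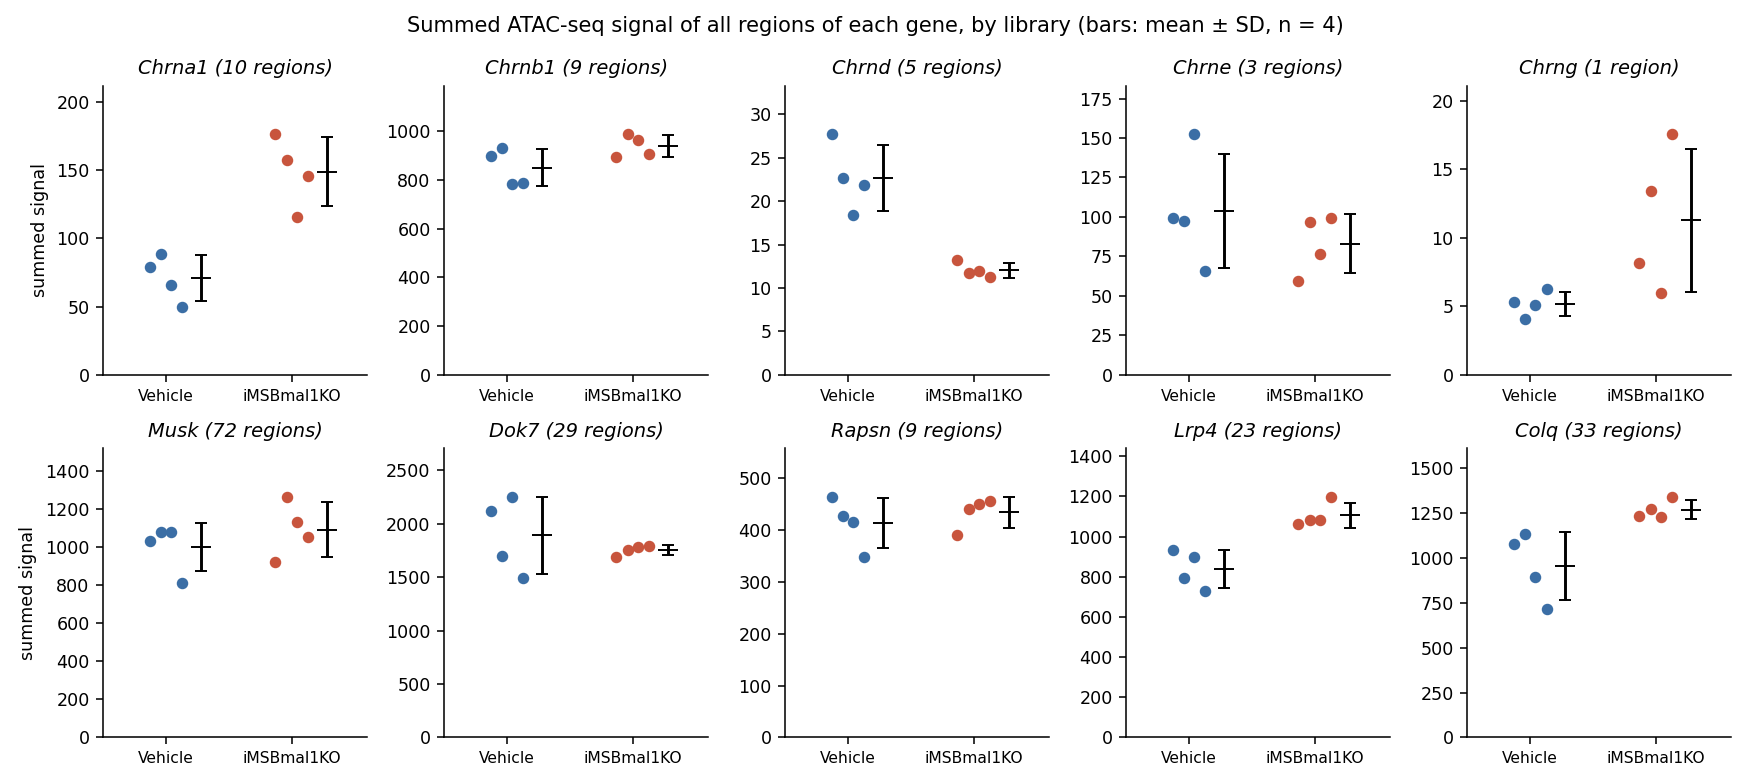
Summed signal of all regions of each gene (y axis, starting at 0) in the 4 Vehicle and 4 iMSBmal1KO libraries (points), with mean ± SD. The 4 iMSBmal1KO values lie above all Vehicle values at Chrna1, Lrp4 and Colq and below them at Chrnd.

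Accessibility of Chrna1, the gene of the subunit that carries the acetylcholine binding sites, rose about 2-fold. Its 10 regions summed to 78.9, 88.4, 66.1 and 50.0 in Vehicle replicates 1 to 4 and to 176, 157, 116 and 146 in iMSBmal1KO replicates 1 to 4. Every iMSBmal1KO library lay above every Vehicle library. The means were 70.8 ± 16.6 and 149 ± 25.4 (± SD over 4 libraries per group), a ratio of 2.10. The log2 change was 1.07 ± 0.21 (SE, adjusted p in limma 0.0388), the 27th smallest p of all genes, and 0.97 above the median change of all genes. Behind the sums were 16 to 104 reads in a Vehicle and 97 to 412 in an iMSBmal1KO library. The lowest value came from Vehicle replicate 4, with 16 reads, and without that library the log2 change was 0.92 (adjusted p in limma 0.0394). The call was lost when Vehicle replicate 1 or 3 or any single iMSBmal1KO library was left out, with log2 changes from 0.99 to 1.19 and limma adjusted p from 0.0836 to 0.183.

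The 10 Chrna1 regions, all of which enter the sum, were not uniform. A region of a later intron (chromosome 2, 73567445 to 73567508) averaged 3.14 ± 2.25 over Vehicle and 2.39 ± 0.55 over iMSBmal1KO libraries (SD), and one of intron 1 (73579232 to 73579308) 4.52 ± 3.86 and 4.26 ± 2.92. Of the 10, 6 passed the filter, with log2 changes from 0.61 to 1.32, and 0 of these passed the threshold alone in the fit over regions. Of these 6, 3 met the filter in all 4 iMSBmal1KO but fewer Vehicle libraries, and 1 of them in no Vehicle library. The filter takes any 4 libraries, so it can admit a region through the group where it is higher. The shared direction is therefore no support. The most accessible one lay in intron 1, 815 bp into the gene (chromosome 2, 73579384 to 73579524). It had a signal of 25.6, 31.9, 22.9 and 6.25 in Vehicle and 56.9, 44.3, 32.2 and 59.0 in iMSBmal1KO. The lowest iMSBmal1KO value was just above the highest Vehicle value, and the log2 change was 1.28 ± 0.40 (SE, adjusted p in limma 0.398), or 0.80 without Vehicle replicate 4, which held 2 reads there. A region of intron 7 (chromosome 2, 73567163 to 73567297) had the largest change of the 6, 1.32 ± 0.35 (SE, adjusted p in limma 0.241). Its Vehicle libraries held 7.46, 10.3, 8.26 and 6.25, and its iMSBmal1KO libraries 31.2, 20.1, 15.5 and 21.3, again without overlap. At the region that holds the E-box nearest to the start, the signal was 9.59, 8.22, 6.35 and 6.25 in Vehicle and 22.7, 13.4, 13.1 and 13.8 in iMSBmal1KO (log2 change 0.94 ± 0.38, SE, adjusted p in limma 0.501). These regions hold few reads, 2 to 36 per Vehicle library in the 3 just described. With the regions near a start alone, the summed log2 change of Chrna1 was 1.30 (adjusted p in limma 0.0598), in a fit over 17720 genes that called 0.079%.

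**Figure D4:**
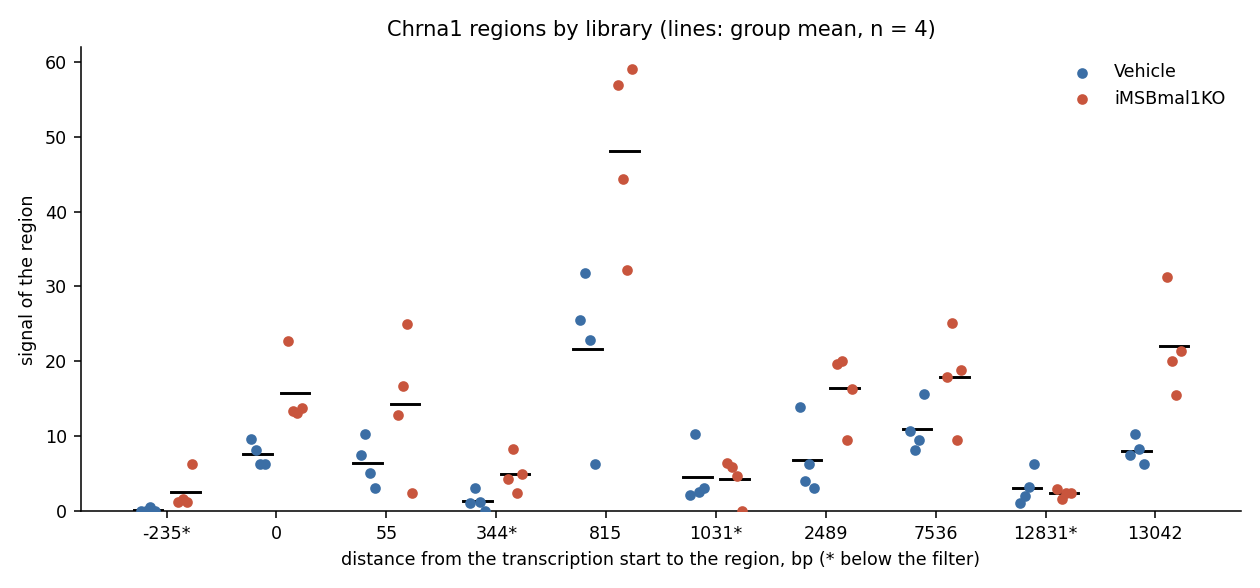
Signal of each of the 10 Chrna1 regions (y axis) in the 4 Vehicle and 4 iMSBmal1KO libraries, with group means as lines, evenly spaced in order of the distance in bp from the start to the region (x axis, negative upstream). The region 815 bp into the gene has the highest signal, with 6.25 to 31.9 in Vehicle and 32.2 to 59.0 in iMSBmal1KO.

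The other receptor subunit genes did not pass the threshold. Chrnb1 sums were 899, 932, 784 and 785 in Vehicle and 895, 988, 965 and 906 in iMSBmal1KO. The groups overlapped, with a log2 change of 0.15 ± 0.14 (SE, adjusted p in limma 0.701). Chrne sums were 99.1, 97.6, 153 and 65.7 in Vehicle and 59.5, 97.0, 76.3 and 99.1 in iMSBmal1KO. The groups overlapped, with Vehicle replicate 3 the highest, and the log2 change was -0.28 ± 0.24 (SE, adjusted p in limma 0.665). It was -0.08 without that library, -0.48 without Vehicle replicate 4 and -0.14 without iMSBmal1KO replicate 1. The Chrne region with the N-box averaged 82.1 ± 29.5 over Vehicle and 65.2 ± 11.2 over iMSBmal1KO libraries (± SD over 4 libraries per group).

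Chrnd, which codes for the delta subunit and neighbours Chrng on chromosome 1, had weak regions, none of which passed the filter by itself. The 5 together gave 27.7, 22.6, 18.4 and 21.9 in Vehicle and 13.3, 11.7, 11.9 and 11.3 in iMSBmal1KO. All iMSBmal1KO sums were lower, but they rested on 7 to 31 reads per library, and the log2 change of -0.85 ± 0.31 (SE) had an adjusted p in limma 0.5005. Chrna1 and Chrnd thus had estimates of opposite sign in the same libraries.

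Lrp4 is the agrin receptor. Its 23 regions summed to 935, 792, 900 and 729 in Vehicle and to 1063, 1080, 1084 and 1199 in iMSBmal1KO. Every iMSBmal1KO sum was the higher, with a log2 change of 0.40 ± 0.14 (SE, adjusted p in limma 0.497). Of its 14 tested regions 12 had a positive change. A positive change was also the more common sign over all tested regions. Some of the 14 met the filter in all 4 iMSBmal1KO but fewer Vehicle libraries, and these had positive changes. The count of 12 is therefore no support for a direction. The largest share of the Vehicle signal, 44.9%, came from a region of the first intron, 3454 bp into the gene (chromosome 2, 91460965 to 91461729). It had a signal of 471, 334, 382 and 319 in Vehicle and 485, 529, 611 and 625 in iMSBmal1KO (log2 change 0.59 ± 0.19, SE, adjusted p in limma 0.410). The groups did not overlap, although Vehicle replicate 1 came close to iMSBmal1KO replicate 1. A region of intron 15 (chromosome 2, 91481005 to 91481170) had a mean of 23.2 ± 10.4 in Vehicle and 43.8 ± 4.56 in iMSBmal1KO (± SD over 4 libraries per group), with an adjusted p in limma of 0.427. Its log2 change of 1.01 became 0.65 without Vehicle replicate 4, which held 3 reads there. This region met the filter in 4 iMSBmal1KO but 3 Vehicle libraries. The strongest promoter region of Lrp4, at a coding exon (chromosome 2, 91476443 to 91476822) near the start of a shorter transcript, was nearly equal in the groups (212 ± 16.8 and 209 ± 27.5, SD, n = 4 each). At the start of the longer transcript, a weaker region (chromosome 2, 91457545 to 91457734) averaged 36.2 ± 16.7 in Vehicle and 56.5 ± 11.2 in iMSBmal1KO (± SD over 4 libraries per group). Its log2 change was 0.77 ± 0.35 (SE, adjusted p in limma 0.533), and Vehicle replicate 4 held 4 reads there. Summed over the regions near a start, the log2 change of Lrp4 was 0.13.

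Musk and Dok7 encode the kinase that LRP4 activates and its adaptor. Musk sums were 1031, 1079, 1076 and 813 in Vehicle and 919, 1264, 1128 and 1052 in iMSBmal1KO, with a log2 change of 0.13 ± 0.15 (SE, adjusted p in limma 0.767). Leaving out Vehicle replicate 4 gave 0.03, leaving out iMSBmal1KO replicate 1 or 2 gave 0.21 or 0.05, and the estimate was 0.01 with trimmed-mean scaling. The Musk signal was spread over 72 regions of which 18 passed the filter. Only 10.3% of it lay near a start, and the strongest region, in intron 8 (chromosome 4, 58351250 to 58351613), held 16.9%. Dok7 sums were 2122, 1700, 2253 and 1488 in Vehicle and 1685, 1754, 1784 and 1791 in iMSBmal1KO. The Vehicle libraries spread to both sides of the iMSBmal1KO libraries (log2 change -0.09 ± 0.15, SE, adjusted p in limma 0.838). Without Vehicle replicate 4 the estimate was -0.20, without Vehicle replicate 1 -0.03 and without Vehicle replicate 3 it was 0.0016.

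Within Dok7, 13 of 16 tested regions had a negative log2 change, with a median of -0.26 over the 16. Some of the 13 met the filter in more Vehicle than iMSBmal1KO libraries, so this count is no support for a direction. A region 294 bp upstream of the start (chromosome 5, 35056503 to 35056594) had a signal of 16.0, 15.4, 19.1 and 25.0 in Vehicle and 13.3, 5.85, 8.35 and 8.78 in iMSBmal1KO. The groups did not overlap there (log2 change -1.01 ± 0.36, SE, adjusted p in limma 0.456), but this region met the filter in 4 Vehicle and only 1 iMSBmal1KO library. The next region, which abuts it and covers the start, held 290 ± 50.1 in Vehicle and 301 ± 10.2 in iMSBmal1KO (± SD over 4 libraries per group). The strongest Dok7 region (chromosome 5, 35074017 to 35074625), 333 bp upstream of the start of a shorter transcript within the gene, held 677 ± 102 and 637 ± 66.1 (± SD over 4 libraries per group).

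Rapsn, the gene of the clustering protein, was accessible almost wholly at its start, where 1 region of 497 bp (chromosome 2, 91035377 to 91035874) held 86.0% of its Vehicle signal. The gene summed to 464, 426, 414 and 347 in Vehicle and to 390, 441, 450 and 455 in iMSBmal1KO. The groups overlapped, and the log2 change was 0.08 ± 0.15 (SE, adjusted p in limma 0.865). This estimate turned to -0.04 with trimmed-mean and to -0.09 with loess scaling of the libraries, and was 0.14 without Vehicle replicate 1, -0.0039 without Vehicle replicate 4 and 0.13 without iMSBmal1KO replicate 1.

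Colq was accessible mainly outside its promoter regions, which held 2.58% of its Vehicle signal. Most came from 25 regions that the table labels as 5′ UTR exon. The strongest of them (chromosome 14, 31555884 to 31556424) held 56.0%. Those past the filter are listed at 15109 to 35460 bp from a start. Other Colq regions are listed from a nearer start, such as 31577589 to 31577716, at 205 bp upstream. The region listed at 15109 bp (31575861 to 31576235) lies much closer to that start. Colq summed to 1076, 1129, 894 and 716 in Vehicle and to 1229, 1272, 1227 and 1340 in iMSBmal1KO, without overlap (log2 change 0.43 ± 0.16, SE, adjusted p in limma 0.5005). The region with the smallest p of all member regions was also a Colq region labelled 5′ UTR exon (chromosome 14, 31557349 to 31557451). Its signal was 29.8, 28.8, 33.0 and 21.9 in Vehicle and 54.4, 72.8, 48.9 and 71.5 in iMSBmal1KO. Every iMSBmal1KO value was well above the Vehicle values, a log2 change of 1.09 ± 0.26 (SE), and the limma adjusted p over all regions was 0.170.

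Taken as single regions, 69 of the 194 member regions passed the filter, from 8 of the 10 genes. With limma and Benjamini-Hochberg adjustment over all 124912 tested regions, 0 of the 69 passed the threshold, and limma-voom gave 0 as well. Over all tested regions 0.0881% were called. At an unadjusted p under 0.05, 13 of the 69 were higher, where 6.6% of all tested regions were, and 1 was lower, where 2.63% were. The groups did not overlap in 10 regions that were higher and 2 that were lower, against 3.62% and 1.87% of all tested regions. The 13 regions came from Lrp4 (5), Chrna1 (4), Colq (3) and Musk (1), and regions of 1 gene that lie side by side are not independent. Of the 69, 13 met the filter in all 4 iMSBmal1KO but fewer Vehicle libraries. This is another set of 13, but it shares regions of Chrna1, Lrp4 and Colq with the 13 that were higher. The number of higher regions is therefore no support for a direction. The median log2 change of the 69 was 0.14, beside 0.12 over all tested regions.

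**Figure D5:**
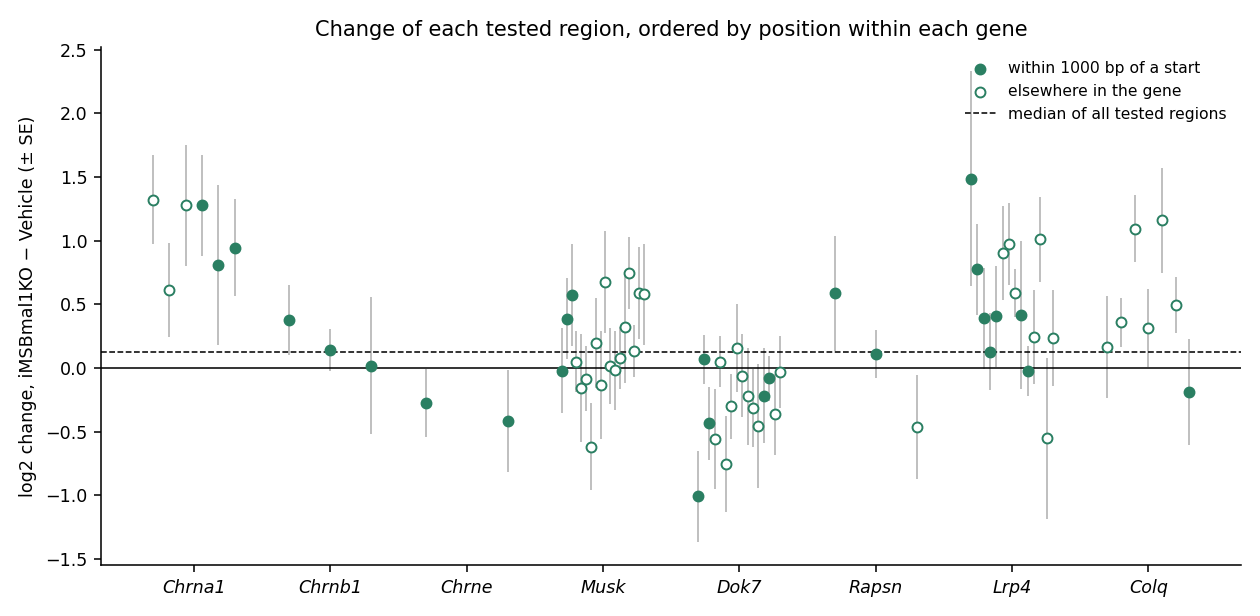
Log2 change of each of the 69 tested regions (y axis, ± SE), in order of chromosome position within each gene, with regions near a start filled and the median of all tested regions dashed. The tested Chrna1 regions lie between 0.61 and 1.32, and 13 of 16 Dok7 regions lie below 0. Some regions passed the filter mainly through the group where they are higher, so these shared directions are no support.

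By the section the table assigns, the largest group of tested member regions lay in later introns (25 of 71 passed the filter), followed by transcription starts (19 of 40) and 5′ UTR exons (10 of 32). The 9 tested regions of first introns, from Lrp4, Chrna1 and Musk, had a median log2 change of 0.59, beside 0.08 over all tested regions of first introns. Of these 9, 4 met the filter in all 4 iMSBmal1KO but fewer Vehicle libraries, so this median is no support for a direction. For transcription starts the median was 0.11 beside 0.17, and for later introns 0.08 beside 0.11. Sections mix genes unevenly, so these medians follow the genes that hold most regions.

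Other genes of the junction were read from a list of 28, with agrin, acetylcholinesterase, utrophin, synaptic laminins, neuregulin and its receptors, and the ETS factors that act on N-boxes. None of their 256 tested regions passed the threshold (smallest adjusted p in limma 0.241), with 11 higher (4.30%) and 8 lower (3.13%) at an unadjusted p under 0.05, beside 6.6% and 2.63% of all tested regions. As summed genes, 0 of 28 passed, and 1, Dnaja3, had an unadjusted p under 0.05 (log2 change 0.41 ± 0.18, SE, adjusted p in limma 0.516). The N-box factor Gabpa was at 1122 ± 234 in Vehicle and 1271 ± 105 in iMSBmal1KO, and Utrn, which codes for a synaptic relative of dystrophin, at 1083 ± 118 and 1199 ± 106 (± SD over 4 libraries per group). A list of 16 genes known to respond to denervation gave a similar picture. Of 196 tested regions 0 passed (smallest adjusted p in limma 0.214), with 8 higher (4.08%) and 3 lower (1.53%) at an unadjusted p under 0.05. Of its 15 tested genes 0 passed, and Ankrd1 alone had an unadjusted p under 0.05 (log2 change 0.50 ± 0.21, SE, adjusted p in limma 0.511). Myog, the myogenic factor that binds E-boxes and is induced by denervation, was at 564 ± 70 in Vehicle and 535 ± 126 in iMSBmal1KO (± SD over 4 libraries per group).

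The genes whose summed signal most resembled that of Chrne over the 8 libraries were Map2k3 (Pearson r of 0.96), Gm17829 (0.96) and Zbtb7b (0.95). Those closest to Chrng were Gm45477 (0.96), Mir7235 (0.96) and Fsd1l (0.96). These are the highest values among 22224 genes over 8 libraries that share depth and scaling, and are given as a description.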

How the data were processed

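The authors deposited 1 table of ATAC-seq signal for 489637 regions and 8 libraries, with gene annotation. Per the submitters' processing notes, Partek, Bowtie2, MACS2 and DESeq2 were used, with no roles given, and mm10 and GRCm39 are named. Transcript bounds in the table lay within 1000 bp of RefSeq GRCm38.p6 (mm10) bounds for 95.4% of 22777 genes. Region positions are given as listed. Removal of duplicates and the transposase shift are not given in the sources used here.

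The deposited signal behaved as reads divided by a factor per library: 98.4% to 99.8% of values above 0 equalled a whole number of steps, within 0.02 reads. Since some did not, no count test was run. The main fit was limma-trend (limma 3.58.1, R 4.3.3) with robust moderation on log2(signal + 1), which understates changes of low regions. Features needed 0.762 read equivalents per M in 4 libraries and 15 in total. Pooling of samples and animals per library is not stated beyond a pair of muscles, so p-values measure the spread between libraries, which may be partly technical.

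Named were all members, the strongest promoter region of each, and the 5 member regions with the smallest p. Other regions, and genes of the wider lists without a called region, were named after their values were seen. Members and lists were chosen with earlier results of these data known. Alternatives were scaling, pseudocount, filter, replicate block, promoter regions alone, each library left out and, added after seeing the data, limma-voom. The fits were tested on simulated data.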

Additional observations from a re-analysis of the deposited data

Results flagged for a closer look

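In 50 groups of 4 values (each member gene sum, the named regions and the Chrne to Chrng ratio, per group), 1 had a library far from the other 3, where chance gives about 2.5. The summed Lrp4 signal of iMSBmal1KO replicate 4 was 1199, against 1063 to 1084 in the other 3 iMSBmal1KO libraries, a gap of 0.845 of the range. It lay on the same side of the Vehicle values as the others.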

How the results depend on the processing

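Chrna1 kept its higher sum in all 18 other settings (log2 change 0.92 to 1.30) and its call in 11 of them. Of the member genes, 1 was called in the main fit, 0 with promoter regions alone, and 0 to 1 when each library was left out. Member regions past the threshold numbered 0 in all 17 other settings. The median change over member regions moved from 0.14 to 0.022 with trimmed-mean, 0.068 with total-read and 0.030 with loess scaling, and to 0.076 with the stricter filter. The count over all regions moved from 110 to 277 with trimmed-mean scaling, 342 with loess, 195 without a filter, 342 with limma-voom, and between 32 and 281 when each library was left out. Changes of sign, all far from the threshold, were Rapsn (-0.040 trimmed mean, -0.087 loess, -0.0039 without Vehicle replicate 4), its promoter region (-0.0047 and -0.024 with these scalings) and, when each library was left out, Dok7 (-0.20 to 0.0016, positive without Vehicle replicate 3), the Lrp4 exon region (-0.077 to 0.061, positive without Vehicle replicate 1, at 0.025, and iMSBmal1KO replicate 3) and the Colq promoter region (-0.38 to 0.16, positive without Vehicle replicate 4). The Chrne to Chrng ratio difference ran from -1.45 to -0.97 with no change of call. The cause of these differences was not tested. Same-numbered libraries did not clearly deviate together (correlations of -0.06, 0.14, 0.02 and 0.02). So few values cannot exclude a pairing, and the labels do not say whether the replicate number marks one. With the replicate number as a block, 100 regions passed, the Chrna1 adjusted p was 0.00505, the ratio gave an exact p of 0.125, the smallest possible, and no member call changed. The planned count test was not run, since not all values were whole reads. Depth limits Chrng and Chrnd most, with 2 to 19 and 7 to 31 reads per library.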

Other observations

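The surroundings of the subunit genes hold regions annotated to other features. Upstream of Chrne, an intergenic region (chromosome 11, 70622085 to 70622413) had a signal of 221 ± 56.0 in Vehicle and 240 ± 48.5 in iMSBmal1KO (± SD over 4 libraries per group, limma adjusted p of 0.860), more than all 3 Chrne regions together. Inside the Chrne transcript, 3 regions are annotated to 4930544D05Rik, the strongest at 15.6 ± 2.21 in Vehicle and 15.9 ± 1.40 (± SD over 4 libraries per group). Between Chrnd and Chrng the table lists 2 intergenic regions, neither of which passed the filter.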
